A study of Triticum aestivum with 4 samples.

Results

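TUBA is a wheat gene for alpha-tubulin. Its members here were the probe sets, the groups of short probes that give 1 value per array, for which the platform annotation lists TUBA as gene symbol or synonym. TUBA is 1 of the 771 genes in that annotation and has 2 of the 61179 probe sets analysed, Ta.723.1.S1_at and Ta.812.1.S1_x_at. The gene was picked because Ta.723.1.S1_at was far lower in polyethylene glycol (PEG) than in water in the cultivar Luohan No.2 while Ta.812.1.S1_x_at was not, so the values below describe these arrays and no test was made on them.

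The study measured root RNA of common wheat (Triticum aestivum) seedlings on 1-colour Affymetrix arrays, with biotin-labelled total RNA and 1 array per group. The 4 groups were Luohan No.2 in tap water, Luohan No.2 in PEG, Chinese Spring in tap water and Chinese Spring in PEG. All seedlings had been germinated in Petri dishes at 25 °C under a 14 h photoperiod. The stress was 6 h in PEG 6000 at -0.49 MPa, begun at the 2-leaf stage. PEG makes water harder for the root to take up and serves as a stand-in for drought. The labels give no mutation or transgene for either cultivar and no number of seedlings per sample. With no replicate arrays, none of the differences below has an error between plants.

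Alpha-tubulin pairs with beta-tubulin to form the dimer from which microtubules are built. In growing plant cells, cortical microtubules guide the laying down of cellulose and so the direction of growth, and in dividing root cells they form the spindle and the phragmoplast. Plants carry several genes for each subunit, and wheat has copies on its A, B and D genomes, so that probes can detect more than 1 copy.

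The arrays were of similar overall brightness within a cultivar. Median signals were 13.5 (water) and 13.9 (PEG) for Luohan No.2 against 20.3 and 20.2 for Chinese Spring. Of the root genes with a name, TaDMAS1, an enzyme of the synthesis of iron-chelating phytosiderophores, gave signals between 295.4 and 419.3. TaALMT1, a malate transporter known from root tips, was at most 66.8. WGA2, a wheat germ agglutinin gene, gave 18.4 (water) and 19.7 (PEG) for Luohan No.2, against 1.3 and 4.5 for Chinese Spring. Genes of green tissue were also present. The signals of rbcl, the large subunit of Rubisco, were 2880.2 (water) and 2678.3 (PEG) for Luohan No.2, against 8007.0 and 7764.6 for Chinese Spring. Those of PsbO, part of the water-splitting complex of photosystem II, were 50.3 and 17.6 against 138.9 and 74.7. For petC they were 13.3 and 9.5 against 288.7 and 129.3. Each was higher on both Chinese Spring arrays than on both Luohan No.2 arrays. Of the green-tissue list of 7 genes, 2 were above the floor, defined next, on all 4 arrays, 3 on 3 arrays and 2 on the Chinese Spring arrays alone. The part of such tissue in the TUBA values was not tested.

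Signals were intensities from the MAS5 algorithm. For each comparison they were raised to a floor of 10.6 where lower, converted to log2 and subtracted. Both TUBA probe sets were above the floor on every array. A difference of at least 2-fold was used as the rule of size, and the share of all measured probe sets that met it is given as the background.

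Ta.723.1.S1_at gave a signal of 914.5 (water) and 32.9 (PEG) for Luohan No.2, against 997.2 and 447.9 for Chinese Spring. Both PEG arrays were thus below both water arrays, and the Luohan No.2 PEG array was far below the other three. The signal was 27.8-fold lower with PEG in Luohan No.2, against 2.23-fold in Chinese Spring. On the log2 scale the changes were -4.80 and -1.15, and the difference between them was -3.64.

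Ta.812.1.S1_x_at gave 5189.6 (water) and 5089.4 (PEG) for Luohan No.2, against 6158.5 and 5888.7 for Chinese Spring. Its 4 values lay close together, and those of a cultivar differed less with treatment than the cultivars differed from each other. The log2 changes with PEG were -0.03 and -0.06, which are folds of 1.02 and 1.05. In Chinese Spring the sign of this small change turned after quantile normalization, to 0.13. The x in the name of this probe set marks probes that can hybridise to other transcripts.

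**Figure D1:**
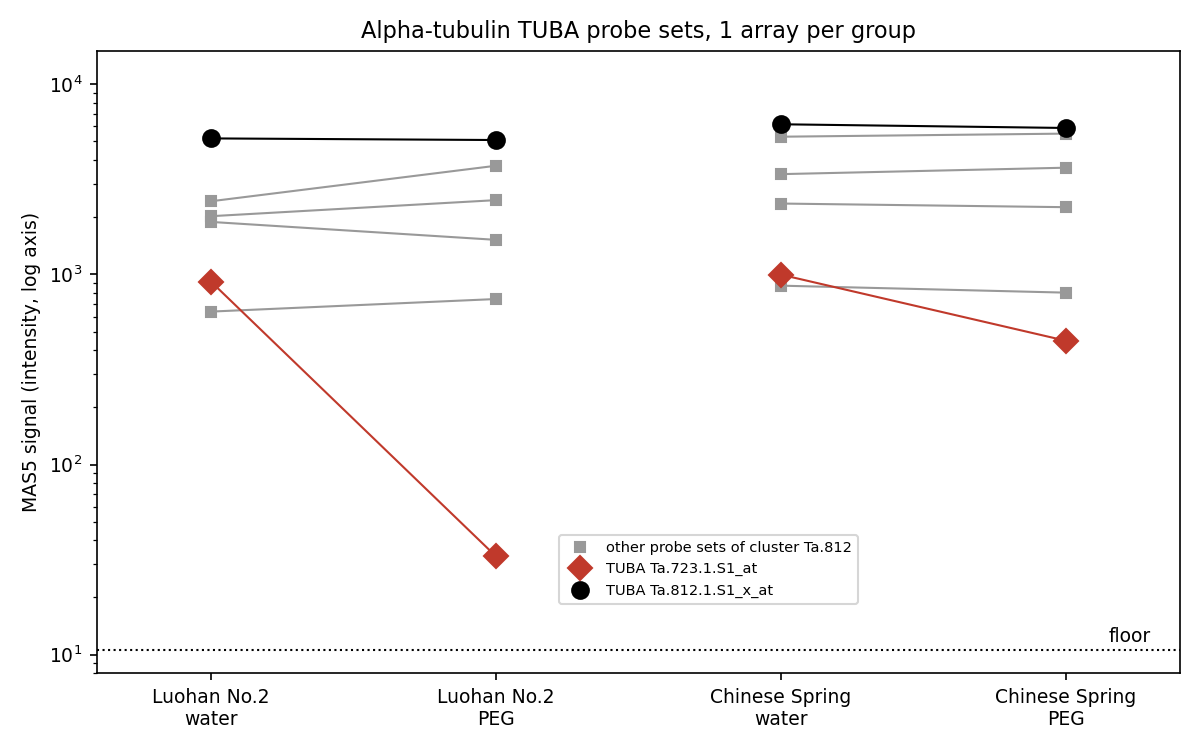
MAS5 signal (log axis) on each of the 4 arrays for the TUBA probe sets Ta.723.1.S1_at (red diamonds) and Ta.812.1.S1_x_at (black circles) and for the other probe sets of the sequence cluster Ta.812 (grey squares). Lines join the water and PEG arrays of a cultivar and the dotted line is the floor of 10.6. The red diamond drops from 914.5 to 32.9 in Luohan No.2 and from 997.2 to 447.9 in Chinese Spring, while the black circles stay between 5089.4 and 6158.5.

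Between cultivars, Ta.723.1.S1_at differed little in water and strongly in PEG. Luohan No.2 was 1.09-fold lower than Chinese Spring in water and 13.6-fold lower in PEG, log2 differences of -0.12 and -3.77. Ta.812.1.S1_x_at was 1.19-fold lower in Luohan No.2 in water and 1.16-fold lower in PEG. Differences between cultivars also hold any effect of sequence variants on hybridisation. The median over all measured probe sets was itself -0.22 in water and -0.20 in PEG, so the differences of Ta.812.1.S1_x_at, -0.25 and -0.21, were close to it. After quantile normalization those medians were -0.02 and 0.01, while Ta.812.1.S1_x_at differed by -0.09 and -0.27. Scaling that set the median of probe sets above 100 on all arrays equal gave -0.28 and -0.30 for Ta.812.1.S1_x_at. The medians over all measured probe sets, many of them weak, were then -0.25 and -0.28.

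The fall of Ta.723.1.S1_at is given here beside those of all measured probe sets. In Luohan No.2, 10.1% of 38468 measured probe sets were at least 2-fold lower with PEG, and in Chinese Spring 10.6% of 46102 were. These shares depend on the treatment of weak signals: flooring at the 20th percentile gave 16.9% and 18.3%, and a pseudocount of 16 instead of a floor gave 3.97% and 4.92%. At least 2-fold lower in both cultivars were 2.45% of the 35693 measured in both. Since the gene was picked on this contrast, nothing is read from its place among them. A fall of at least 16-fold was found for 0.0962% in Luohan No.2 and 0.0824% in Chinese Spring. Probe sets with a weak signal in water would reach the floor before falling that far, so they could not be counted. Counted from the lowest change, Ta.723.1.S1_at was at rank 16 of 38468 in Luohan No.2 and at rank 3565 of 46102 in Chinese Spring.

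Among probe sets of comparable starting signal, falls of at least 16-fold made up a larger share than among all measured probe sets. Of 4419 probe sets with a signal above 500 in Luohan No.2 in water, 547 (12.4%) were at least 2-fold lower in PEG and 17 (0.385%) at least 16-fold lower. Ta.723.1.S1_at had the 10th lowest change of the 4419. It was the one member of the 17 with a named gene. Of the other 16, 12 were at least 2-fold lower with PEG in Chinese Spring as well and 0 were at least 16-fold lower there. Over all 46102 probe sets measured there the shares were 10.6% and 0.0824%, not limited to a signal above 500. The 16 were picked by their fall in Luohan No.2, and Ta.9401.3.S1_at and Ta.9401.3.S1_x_at among them share 1 sequence, so nothing is read from this count. The median log2 change of the 16 in Chinese Spring was -1.58, with a range from -3.60 to 0.25, and the -1.15 of Ta.723.1.S1_at lay inside it.

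The PEG responses of Ta.723.1.S1_at in the 2 cultivars were more than 4-fold apart, with the lower one in Luohan No.2. Over the 3679 probe sets with a signal above 500 on both water arrays, 32 (0.87%) had a response lower by that much in Luohan No.2 and 46 (1.25%) had one higher by that much. Over all 35693 measured in both cultivars the shares were 3.61% and 2.3%.

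**Figure D2:**
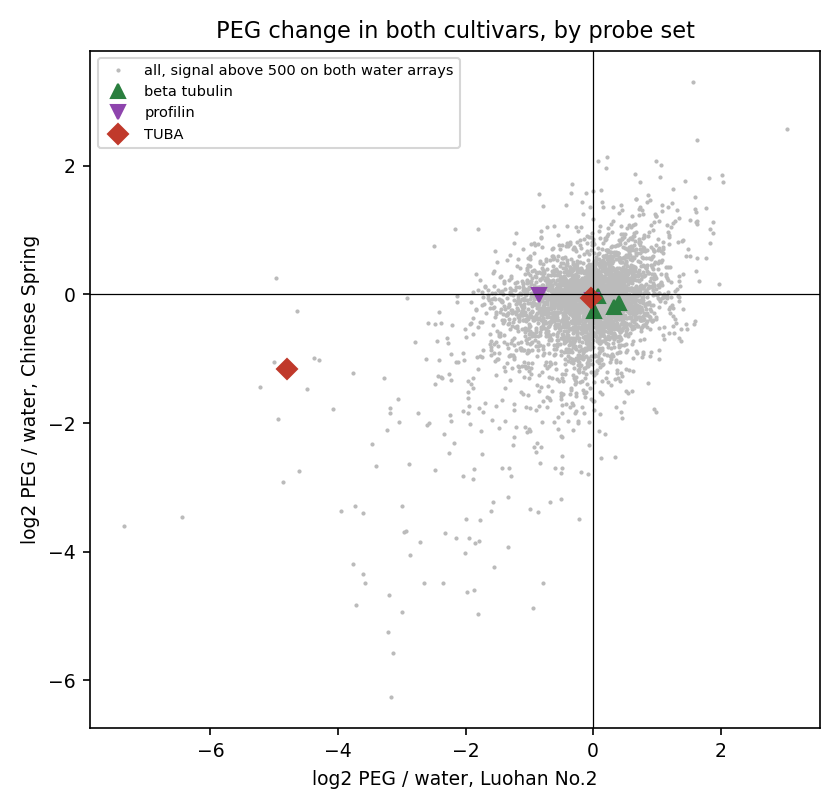
Log2 change with PEG in Luohan No.2 (horizontal axis) and in Chinese Spring (vertical axis) for the 3679 probe sets with a signal above 500 on both water arrays. Each grey point is a probe set, green triangles are beta tubulins, purple triangles profilin and red diamonds TUBA. One TUBA point lies at -4.80 and -1.15, and the other, at -0.03 and -0.06, in the centre of the cloud.

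The TUBA probe sets come from different sequence clusters of the array design, as the numbers 723 and 812 in their names show, and the annotation pairs each with a different source sequence. Whether both detect the same transcript was not tested. The difference between their log2 changes with PEG was -4.77 in Luohan No.2 and -1.09 in Chinese Spring. Other pairs of probe sets show how often such disagreement was seen. Among 260 pairs annotated to the same gene, both above 100 in water, 26 (10%) differed at least 2-fold in their Luohan No.2 change. The TUBA pair had the largest difference of the 260, and the next pair, of the gene LOC606369, differed by 1.72 on the log2 scale. Since TUBA was picked for this disagreement, nothing is read from its place among the pairs. In Chinese Spring 6 of 266 such pairs (2.26%) differed at least 2-fold, and 5 differed by at least as much as the TUBA pair, TUBA included. The planned limit, a signal above 100 on both arrays, leaves out the TUBA pair in Luohan No.2. By that limit 19 of 245 pairs (7.76%) differed at least 2-fold there.

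The closest counterpart to the TUBA pair is a pair of 1 gene drawn from different clusters. In Luohan No.2, 11 of 47 such pairs differed at least 2-fold, with a median log2 difference of 0.63. In Chinese Spring 2 of 45 did, with a median of 0.31, and 1 of the 2 was TUBA. Pairs from the same cluster disagreed more often in Luohan No.2 too, with 13.6% of 7314 pairs at least 2-fold apart against 4.19% of 7496 in Chinese Spring. Of the 7314, 0 differed by as much as the TUBA pair, and the largest difference was 4.48. Here too nothing is read from the place of a pair picked for its disagreement. The SD of log2 changes within clusters, above a signal of 100 on both arrays, was 0.43 in Luohan No.2 and 0.28 in Chinese Spring. This SD covers differences between probe sets of a cluster, from noise or from the transcripts they detect, and not differences between samples. Ta.723.1.S1_at, at 32.9 in Luohan No.2 in PEG, was itself below the limit of 100 used for this SD.

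The cluster of Ta.812.1.S1_x_at holds 4 further probe sets, and cluster Ta.723 holds no other. The annotation pairs 1 of the 4 with a gene, LOC100049037, and the others have no gene entry. Ta.812.4.S1_at gave 2425.3 (water) and 3727.3 (PEG) for Luohan No.2, against 5297.0 and 5499.9 for Chinese Spring. Ta.812.3.S1_x_at gave 1887.7 and 1519.5 for Luohan No.2, against 2358.4 and 2256.7 for Chinese Spring. The first was higher and the second lower on the Luohan No.2 PEG array than in water, by 0.62 and -0.31 on the log2 scale. Ta.812.2.A1_x_at and Ta.812.4.S1_x_at changed by 0.22 and 0.28 in Luohan No.2 and by -0.12 and 0.11 in Chinese Spring. None of the 4 passed 2-fold with PEG, with median changes of 0.25 for Luohan No.2 and -0.005 for Chinese Spring, against 0.02 and -0.04 for all measured probe sets.

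All 4 were lower in Luohan No.2 than in Chinese Spring in water. Their median log2 difference was -0.59, and that of all measured probe sets was also below 0, at -0.22. Ta.812.4.S1_at was 2.18-fold lower, where 15.2% of 42716 probe sets were at least 2-fold lower, or 8.54% after quantile normalization. With the floor at a signal of 100, which leaves out weak probe sets, the share was 4.23% of 15095. In PEG all 4 were again lower in Luohan No.2, with 0 of 4 at least 2-fold lower. The background was 16.3%, or 10.4% after quantile normalization and 6.67% with the floor at a signal of 100. Their median log2 difference was -0.56, against -0.20 for all measured probe sets. The share of all probe sets lower by any amount was not computed.

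The beta-tubulin genes, whose products pair with alpha-tubulin, offer values that the choice of TUBA did not use. The annotation names 5, tubb1 to Tubb5, with 8 probe sets. By the probe set with the highest mean signal of each gene, 0 of 5 were at least 2-fold higher or lower with PEG in either cultivar, against backgrounds of 7.65% higher and 10.1% lower in Luohan No.2, and of 9.89% higher and 10.6% lower in Chinese Spring. The median log2 change was 0.33 in Luohan No.2 and -0.14 in Chinese Spring, and the ranges were 0.01 to 0.66 and -0.25 to 0.03.

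The tubb1 signals were 4889.3 (water) and 6145.6 (PEG) for Luohan No.2, against 6166.6 and 5393.4 for Chinese Spring, so that the Luohan No.2 water array was lowest. For tubb2 they were 3900.6 and 4091.0 for Luohan No.2, against 4550.1 and 4487.8 for Chinese Spring, with both Chinese Spring arrays higher. The tubb3 signals were 3042.3 and 3059.1 for Luohan No.2, against 3545.6 and 2973.6 for Chinese Spring. For each of these 3 genes the 4 arrays stayed within 2-fold of each other.

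For Tubb4 the signals were 1920.7 (water) and 2554.6 (PEG) for Luohan No.2, against 2525.6 and 2292.6 for Chinese Spring. Tubb5, by Ta.214.2.A1_x_at, gave 399.0 and 632.6 for Luohan No.2, against 685.3 and 699.7 for Chinese Spring. The Luohan No.2 water array was lowest for both. The other 3 Tubb5 probe sets changed by -0.07, 0.16 and 0.67 in Luohan No.2, and by between -0.24 and -0.10 in Chinese Spring. None of the 8 beta-tubulin probe sets was low on the Luohan No.2 PEG array in the way Ta.723.1.S1_at was.

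In water all 5 beta-tubulin genes were lower in Luohan No.2 than in Chinese Spring, with a median log2 difference of -0.33 against -0.22 for all measured probe sets, and 0 of 5 passed 2-fold. In PEG the median was 0.04 against -0.20 for all measured probe sets, and after quantile normalization it was -0.01 against 0.01.

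Profilin binds actin monomers and was the other cytoskeletal gene with a name. It too had probe sets that differed on the Luohan No.2 PEG array. Ta.5057.1.S1_x_at gave 4338.5 (water) and 2408.2 (PEG) for Luohan No.2, against 4343.6 and 4291.9 for Chinese Spring, so that 3 arrays were close and the Luohan No.2 PEG array was 1.80-fold below its water array. Ta.5057.3.A1_at gave 6921.7 and 6828.9 for Luohan No.2, against 8974.1 and 8401.2 for Chinese Spring, log2 changes of -0.02 and -0.10.

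**Figure D3:**
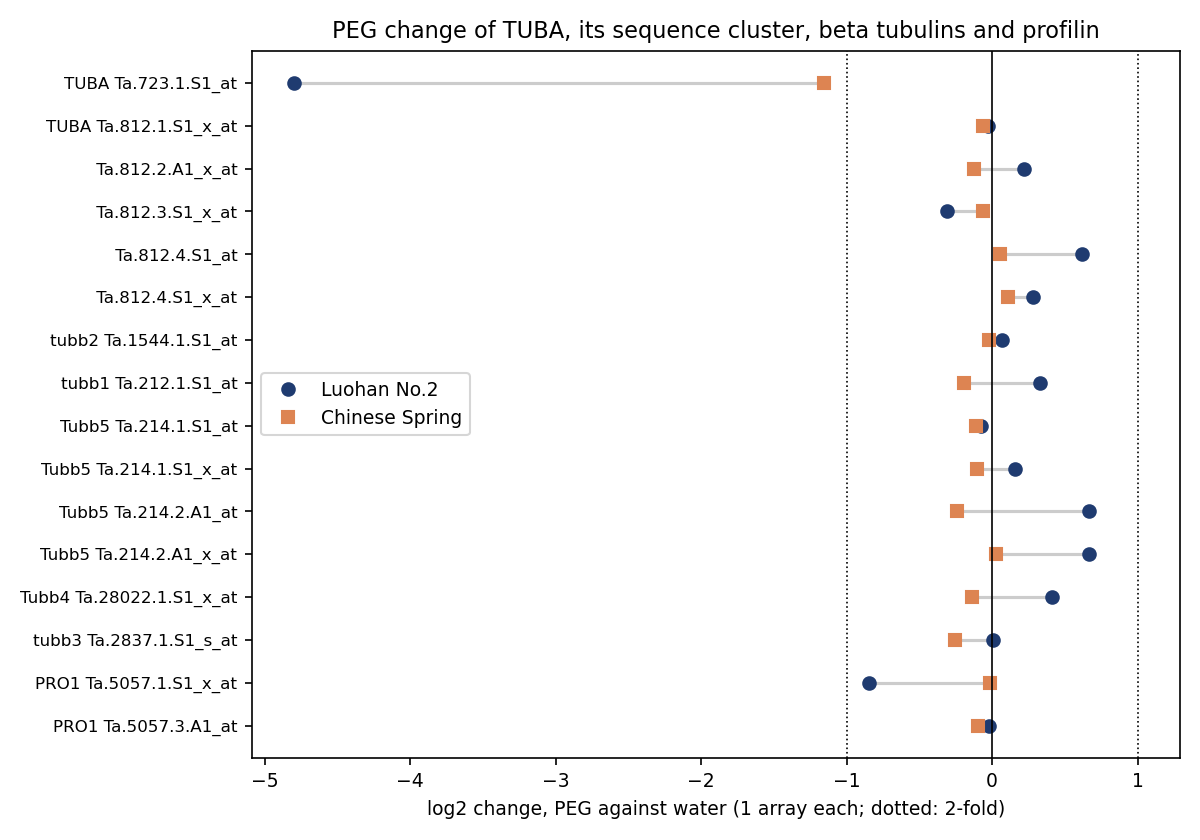
Log2 change with PEG (horizontal axis, 1 array against 1 array) of each TUBA, Ta.812 cluster, beta-tubulin and profilin probe set, with Luohan No.2 as blue circles and Chinese Spring as orange squares. Dotted lines mark 2-fold. Ta.723.1.S1_at stands alone at -4.80 and -1.15, and the other 15 probe sets lie between -0.85 and 0.67.

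The array carries control probe sets near the 5' end, the middle and the 3' end of several wheat transcripts. Labelling starts at the poly(A) tail, so the ratio of 5' to 3' signal falls when RNA is fragmented or copied in short pieces. Of 7 wheat controls, 4 were above the floor at both ends on all arrays, and all 4 had their lowest 5' to 3' ratio in Luohan No.2 under PEG. Sucrose synthase, which cleaves sucrose for metabolism and wall synthesis, had ratios of 0.0554 (water) and 0.0216 (PEG) for Luohan No.2, against 0.0805 and 0.0693 for Chinese Spring. Glucose-6-phosphate dehydrogenase, the first enzyme of the oxidative pentose phosphate pathway, had 0.375 and 0.243 for Luohan No.2, against 0.390 and 0.388 for Chinese Spring. Ubiquitin, the protein tag for degradation, had 2.45 and 1.59 for Luohan No.2, against 3.50 and 2.73 for Chinese Spring.

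The array on which the wheat controls' 5' to 3' ratios were lowest was also the array with the lowest Ta.723.1.S1_at signal, and the order of the other arrays depended on the control. By the 5' to 3' ratios of ubiquitin, sucrose synthase and glucose-6-phosphate dehydrogenase, the order from low to high was Luohan No.2 PEG, Luohan No.2 water, Chinese Spring PEG and Chinese Spring water. By Ta.723.1.S1_at the Chinese Spring PEG array, at 447.9, came below the Luohan No.2 water array, at 914.5. The 5' to 3' ratio of CYP86, a fatty acid hydroxylase, and the M to 3' ratio of sucrose synthase, from the middle of the transcript, put the arrays in the same order as Ta.723.1.S1_at. The M to 3' ratios of glucose-6-phosphate dehydrogenase, ubiquitin and CYP86 put the arrays in other orders. The part of RNA quality in the fall of Ta.723.1.S1_at was not tested. With 4 arrays no correlation was computed.

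In Luohan No.2, where the log2 change of Ta.723.1.S1_at was -4.80, the 5' to 3' ratios changed by -1.35 for sucrose synthase, -0.63 for glucose-6-phosphate dehydrogenase and -0.62 for ubiquitin. In Chinese Spring, where it was -1.15, they changed by -0.22, -0.01 and -0.36. The CYP86 ratio changed by -1.41 in Luohan No.2 and by -1.20 in Chinese Spring, the latter slightly more than Ta.723.1.S1_at, at low signals with the 5' probe set at most 37.0. The CYP86 3' signal rose with PEG, from 49.6 to 109.4 in Luohan No.2 and from 54.4 to 162.7 in Chinese Spring. Its 5' signal changed by only -0.27 and 0.38 on the log2 scale, so the ratio fell mostly through the 3' end. The M to 3' ratio changed in Luohan No.2 by -1.24 for sucrose synthase, -0.41 for glucose-6-phosphate dehydrogenase, -0.08 for ubiquitin and -0.80 for CYP86. In Chinese Spring it changed by -0.24, -0.03, -0.27 and -1.37 for the same controls. By this ratio the Luohan No.2 PEG array was lowest for sucrose synthase and glucose-6-phosphate dehydrogenase, and the Chinese Spring PEG array for ubiquitin and CYP86.

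The signals behind the sucrose synthase and ubiquitin ratios were as follows. The sucrose synthase 5' signal was 312.2 (water) and 64.7 (PEG) for Luohan No.2, against 622.6 and 358.2 for Chinese Spring. Its 3' signal was 5639.4 and 2988.6 for Luohan No.2, against 7736.0 and 5169.1 for Chinese Spring. In Luohan No.2 the log2 changes were -2.27 at the 5' end, -2.16 in the middle and -0.92 at the 3' end, so this transcript was lower in PEG at every position and more so away from the 3' end. Ubiquitin changed by -0.36 at the 5' end and by 0.26 at the 3' end. Where in the transcript the probes of Ta.723.1.S1_at lie is not in the tables used here, and the part of probe position in its fall was not tested.

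Bacterial transcripts that serve as labelling controls had lower 5' to 3' ratios in Luohan No.2. The dap control had 5' to 3' ratios of 0.0760 (water) and 0.0598 (PEG) for Luohan No.2, against 0.372 and 0.320 for Chinese Spring. The thr control had 0.132 and 0.195 for Luohan No.2, against 0.532 and 0.504 for Chinese Spring, and the lys control 0.302 and 0.523 for Luohan No.2, against 1.01 and 0.630 for Chinese Spring. All 3 were lower on both Luohan No.2 arrays than on both Chinese Spring arrays. The 5' signals behind them were low in Luohan No.2, at 21.0 and 17.8 for thr and 18.6 and 13.5 for lys, near the floor of 10.6. For dap and thr the cultivars stood further apart than the treatments. For lys the treatment changes were 0.79 and -0.68 on the log2 scale, larger than the gap between cultivars in PEG and smaller than that in water. By the M to 3' ratio dap and thr were again lower on both Luohan No.2 arrays. That of lys was not, with 0.765 and 1.02 for Luohan No.2 against 0.681 and 1.03 for Chinese Spring. The Ta.723.1.S1_at signals in water were 914.5 for Luohan No.2 and 997.2 for Chinese Spring, 1.09-fold apart. A signal level and a 5' to 3' ratio are unlike measures, and the part of labelling in the Ta.723.1.S1_at values was not tested.

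**Figure D4:**
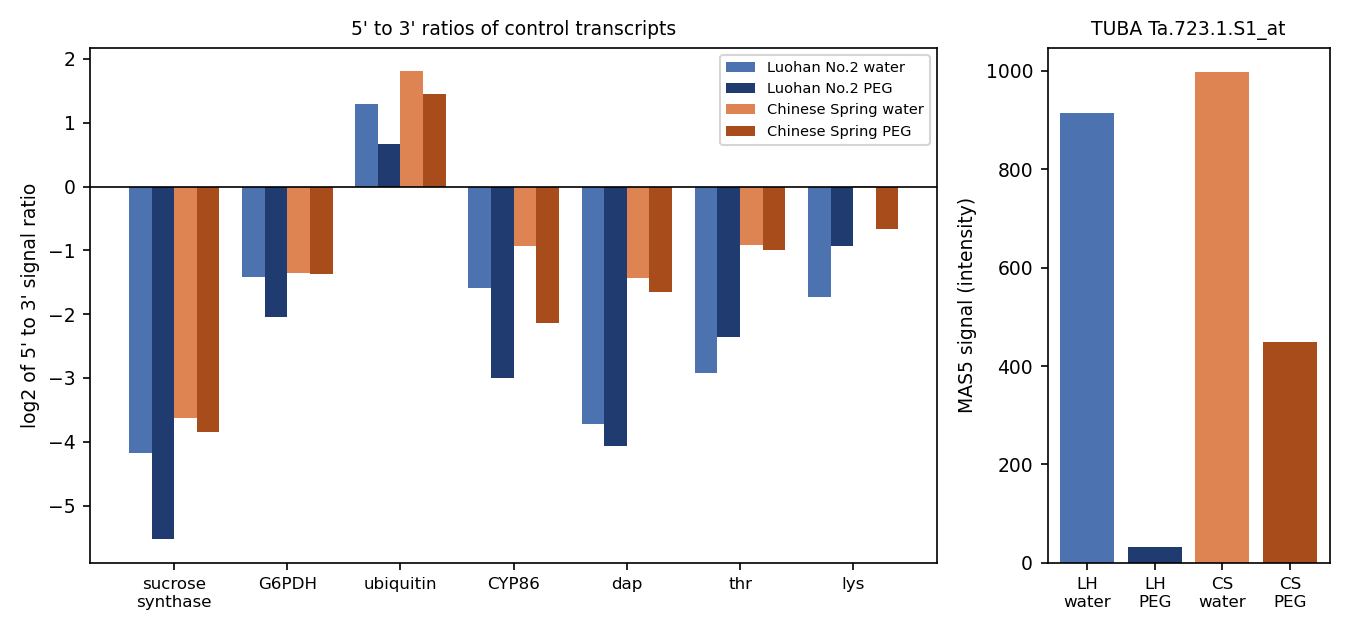
Left, log2 of the 5' to 3' ratio for the 4 wheat controls (G6PDH is glucose-6-phosphate dehydrogenase) and the 3 bacterial controls above the floor at both ends on all arrays, 1 bar per array. Right, the MAS5 signal of Ta.723.1.S1_at on the same arrays (LH, Luohan No.2, and CS, Chinese Spring). The Luohan No.2 PEG bar is lowest for the 4 wheat controls and for Ta.723.1.S1_at, at 32.9.

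The probe sets with the patterns most like those of TUBA were found by the root mean square difference of log2 signals over the 4 arrays, each centred on its own mean. None of the 93 other named genes came near Ta.723.1.S1_at. The nearest was PsbO, listed as OEE1, at 1.17 log2 units, with signals of 50.3 and 17.6 for Luohan No.2, against 138.9 and 74.7 for Chinese Spring. PsbP (listed as OEE2), XTH, TaALMT1 (listed as ALMT1-1) and WZF1 followed at 1.43 to 1.59. Of all 48875 probe sets compared, 6 lay within 0.25 log2 units, and the nearest had no gene entry. Ta.10360.1.S1_at, at 0.0953, gave 419.8 (water) and 16.2 (PEG) for Luohan No.2, against 532.9 and 241.9 for Chinese Spring. Ta.14088.1.S1_x_at, at 0.120, gave 787.2 and 24.5 for Luohan No.2, against 682.7 and 327.8 for Chinese Spring. Ta.3059.1.S1_at followed at 0.186.

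Patterns like the near-level one of Ta.812.1.S1_x_at were common, with 13806 of 48875 probe sets within 0.25 log2 units. The nearest named gene was tubb2, at 0.0455, and the second was profilin by Ta.5057.3.A1_at, at 0.0552. The histone gene wcH2B-6 was at 0.0650. EM and TTHV completed the 5 at signals of at most 11.9, where the floor sets the pattern. The nearest of all was Ta.27943.1.A1_at, at 0.00685, with signals between 249.5 and 305.5. Ta.19083.1.S1_at and TaAffx.53977.1.S1_at, at 0.0103 and 0.0110, had signals of at most 12.8.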

How the data were processed

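Per the labels, each of 4 arrays held root RNA of 1 sample. The authors deposited linear intensities, 1 for every probe set, from MAS5 (version not given in the sources used here) according to the submitters' processing notes. They are not centred, and the trimmed mean of each array was near 100. MAS5 subtracts mismatch signal, so weak values are noisy.

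From 61290 probe sets 111 controls were set aside. Values were floored at the 40th percentile, 10.6, and log2 taken. Of the rest, 1273 had 1 gene, 0 several and 59906 none, and 770 of 771 genes were found among the RefSeq genes (assembly IWGSC CS RefSeq v2.1), which gave current names and synonyms. No sequences were used. The steps ran in Python 3.11.15 with pandas 2.3.3 and were tested on simulated data with known folds.

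Groups came from the cultivar and treatment labels. Comparisons were 1 array against 1 array, with no test; having only 4 arrays limits the precision. Genes named were both TUBA probe sets, their cluster, the tubulin and cytoskeletal genes with names, the controls, and the 5 named genes and 3 probe sets most like each TUBA probe set. The members and lists were chosen with earlier results of these data known. A few others, such as the gene of the next most discordant pair, were named after their values were seen. A planned search for further tubulins by protein sequence was not run.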

Additional observations from a re-analysis of the deposited data

Results flagged for a closer look

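Opposite signs of the PEG change in the 2 cultivars were seen for 7 of the TUBA, Ta.812 cluster, beta-tubulin and profilin probe sets. The change in each cultivar was below 2-fold, and none of these differences was tested. The share of all measured probe sets with opposite signs was not computed, so the count is not read as a result. Each difference is given as the log2 change in Luohan No.2 minus that in Chinese Spring. It was 0.34 for Ta.812.2.A1_x_at, 0.089 for tubb2, 0.52 for tubb1, 0.55 for Tubb4 and 0.26 for tubb3. For Tubb5 it was 0.26 by Ta.214.1.S1_x_at and 0.91 by Ta.214.2.A1_at. The SD of such differences within sequence clusters was 0.47. Neither TUBA probe set had opposite signs in the cultivars in the values as reported, but after quantile normalization Ta.812.1.S1_x_at changed by -0.05 for Luohan No.2 and by 0.13 for Chinese Spring. With 1 array per group, no group was large enough to look for a sample far from the others.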

How the results depend on the processing

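Alternative floors, scalings and probe set choices gave 112 values for 22 results, of which 103 moved by less than the SD within sequence clusters. Many of the 103 could not move, so their number does not measure stability. Floors at the 20th and 60th percentiles lie below all TUBA and beta-tubulin signals. Multiplying an array by a factor cannot change the difference between its TUBA probe sets. The 9 others concerned how far Ta.723.1.S1_at fell on the Luohan No.2 PEG array, and 1 control. With the floor at a signal of 100, its change in Luohan No.2 was -3.19 on the log2 scale, a bound, its difference between cultivars in PEG -2.16, the difference between responses -2.04 and that from Ta.812.1.S1_x_at -3.16, since 32.9 lies below that floor. With a pseudocount of 16 in place of the floor they were -4.25, -3.25, -3.12 and -4.22. The ubiquitin ratio change in Luohan No.2 was -0.076 from the middle in place of the 5' end. No value of 2-fold or more changed sign. Near 0, 6 values did, for Ta.812.1.S1_x_at and the beta-tubulin median in PEG. Flooring at the 20th percentile, the share of probe sets at least 2-fold lower with PEG was 16.9% in Luohan No.2 and 18.3% in Chinese Spring, and with the pseudocount 3.97% and 4.92%. Of calls between cultivars in water, 71.1% were lower in Luohan No.2 and 49.2% after quantile normalization, and in PEG 70.6% and 50.8%. No paired analysis was possible because each group has 1 array.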
